A study of Mus musculus with 12 samples.

Results

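SSC-only sites inside commonly methylated genes are stretches of a transcript that carried an N6-methyladenosine (m6A) peak in none of 3 libraries of neural stem cell-like cells (iNSCs) and in all 3 libraries of the spermatogonial stem cells (SSCs) they came from, although the gene itself carried at least 1 peak in all 6 libraries. Peaks of the 6 lists were merged into sites wherever they shared 1 base or more and the strand. The sites were chosen by the presence of peaks: a site was kept when it lay in 1 protein-coding gene of the RefSeq GRCm38 gene table, had a peak in no iNSC list and in all 3 SSC lists, and its gene had a peak in each list. The rule gave 932 sites in 691 genes, of 22872 sites in the 3967 genes with a peak in all 6 lists and of 48292 sites in the whole series. These 932 sites were 4.07% of the sites in those genes, where 3.48% had the mirror pattern, called iNSC-only. Over all sites of the series the SSC-only pattern made up 5.59% and the iNSC-only pattern 3.42%. Since peak presence chose the sites, their number, their scores and their widths are given as a description with no test. Only position along the gene was tested. The rule did not use position itself, but it kept SSC-only sites off iNSC peaks. Position is therefore not independent of the rule.

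m6A was measured by antibody pull-down of poly(A) RNA cut to about 200 nt, in 3 iNSC and 3 SSC libraries from mouse testis-derived cells. iNSCs are neural stem cell-like cells made by moving SSCs onto laminin and treating them with 1 µM retinoic acid for 24 h, then with a neural medium holding 20 ng/mL basic FGF and 10 µM SB431542, which blocks the kinase activity of TGF-β receptors. SSCs, which renew themselves and give rise to sperm, were grown on inactivated STO fibroblast feeders with GDNF, LIF, EGF and 10 ng/mL basic FGF. No genotype, strain or animal age is given in the labels, the replicates are numbered without a statement that they were separate cultures, and 6 input libraries were left out of these results. In 12 of 12 samples the labelled cell type is the reverse of what the title and source name say, and the title was followed.

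m6A is a methyl mark that the METTL3-METTL14 complex writes on adenosines of nascent RNA, mostly within a short motif around the sequence GGAC. Proteins of the YTH family, such as YTHDF1, bind the mark, and its known functions include control of splicing, translation and decay of the transcript. In most mammalian cells the marks gather in long internal exons, near stop codons and in 3′ untranslated regions, and a transcript often carries several of them. Because a peak appears only where a transcript is both present and methylated, fewer cells of a type, less RNA per cell and less methylation cannot be told apart in these bulk lists.

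The SSC-only sites with the best scores included several that covered an annotated transcription start. Of these, 4 are shown because the edges of the site can be read against that start. An edge is where a peak was called to end, and the methylated base within a site is not known. Each sequence is the RefSeq GRCm38.p6 window from 250 bases before to 50 bases after the start, written 5′ to 3′ on the gene's strand, and capitals mark the bases that lie inside the SSC-only site. The windows are chr1:86359406-86359705 for Ncl, chr15:11995958-11996257 for Sub1, chr9:103365731-103366030 for Cdv3 and chr9:67049164-67049463 for Tpm1, all on the minus strand.
Ncl: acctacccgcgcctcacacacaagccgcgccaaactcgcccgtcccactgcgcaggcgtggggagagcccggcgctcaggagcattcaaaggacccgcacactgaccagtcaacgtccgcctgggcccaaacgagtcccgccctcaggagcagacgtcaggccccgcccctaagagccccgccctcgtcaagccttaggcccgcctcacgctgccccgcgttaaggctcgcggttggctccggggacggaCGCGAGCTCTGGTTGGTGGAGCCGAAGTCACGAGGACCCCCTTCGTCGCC
Sub1: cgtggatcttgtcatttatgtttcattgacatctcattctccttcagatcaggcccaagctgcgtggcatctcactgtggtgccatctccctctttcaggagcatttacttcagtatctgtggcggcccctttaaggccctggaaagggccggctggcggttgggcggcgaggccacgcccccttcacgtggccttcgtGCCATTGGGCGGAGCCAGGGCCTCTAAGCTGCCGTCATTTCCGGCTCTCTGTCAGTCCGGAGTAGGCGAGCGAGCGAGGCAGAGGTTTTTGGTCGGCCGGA
Cdv3: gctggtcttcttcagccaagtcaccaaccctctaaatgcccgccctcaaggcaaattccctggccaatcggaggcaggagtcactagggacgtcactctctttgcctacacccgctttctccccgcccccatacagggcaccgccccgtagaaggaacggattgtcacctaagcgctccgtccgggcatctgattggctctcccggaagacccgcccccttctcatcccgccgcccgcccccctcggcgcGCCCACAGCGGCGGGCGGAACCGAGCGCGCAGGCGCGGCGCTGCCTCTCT
Tpm1: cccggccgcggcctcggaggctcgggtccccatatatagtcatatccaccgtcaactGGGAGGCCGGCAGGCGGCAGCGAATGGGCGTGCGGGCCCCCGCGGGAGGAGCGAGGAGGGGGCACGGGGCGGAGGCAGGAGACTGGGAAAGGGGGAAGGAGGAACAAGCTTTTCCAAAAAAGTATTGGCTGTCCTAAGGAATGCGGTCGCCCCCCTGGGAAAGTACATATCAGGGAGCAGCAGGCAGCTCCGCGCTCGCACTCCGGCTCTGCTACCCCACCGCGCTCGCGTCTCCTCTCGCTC
In Ncl and Cdv3 the capitals begin at the start itself, so the edge of the site and the annotated start were the same base. The Sub1 site began 51 bases and the Tpm1 site 193 bases before the annotated start used for the window. The spans in the gene table begin further upstream, at chr15:11996038 for Sub1, chr9:67049672 for Tpm1 and chr9:103365835 for Cdv3. By these spans the whole Tpm1 site lies inside its gene. Only the part of the Sub1 site from there to its edge at chr15:11996058 lies outside. Capitals before the window's start are therefore not shown to be untranscribed promoter. A promoter window was given for 576 of the 691 host genes, which held 772 of the 932 sites, and 65 sites reached into their window. The 5′ edge of 37 of these 65 sites was exactly the annotated start, and that of 47 lay within 10 bases of it. These edges were not counted for shared or iNSC-only sites, so the match is not shown to be particular to SSC-only sites. Of all peaks, 4.9% to 5.94% in the SSC lists had an edge on a gene edge. In the iNSC lists the share was higher, at 10.6% to 11.99%. The letters GGAC occurred in the 50 bases after the start in 15 of the 65 windows (23.1%), against 20% of all 21263 protein-coding windows in the table. The opposite-strand letters GTCC occurred in 14 of the 65 (21.5%), against 18.8% of all windows. Both shares were close to those of all windows. Of the sequences shown, Ncl holds GGAC after its start and Sub1 holds GTCC.

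The lists differed in length and in peak width. The iNSC lists held 13913, 16002 and 16060 peaks with median widths of 433, 397 and 368 bases, and the SSC lists held 27597, 19728 and 24775 peaks with median widths of 193, 205 and 202 bases. The authors' score per peak has no stated unit and is capped for the strongest peaks, which took up 15.0% to 17.6% of iNSC peaks and 3.73% to 7.56% of SSC peaks. Scores were therefore turned into percentiles within each list, in which the cap sits at 98.1, 96.1 and 97.6 in SSC replicates 1, 2 and 3, with a few peaks above it. In iNSC replicates 1, 2 and 3 the cap sits at 92.3, 90.9 and 91.8. High percentiles are therefore not on the same scale in the 2 cell types. Of 9 germ cell and spermatogonial markers, 1, 1 and 2 had a peak in the iNSC lists and 7, 4 and 5 in the SSC lists. Of 7 neural stem markers, 2 had a peak in each iNSC list (Pax6 and Nes), and 3, 3 and 4 in the SSC lists. Fibroblast markers, which the feeders would carry, had 4, 3 and 4 of 6 genes with a peak in the iNSC lists and 4, 3 and 6 in the SSC lists. Of 4 endothelial markers none had a peak in an iNSC list and 4, 3 and 4 had one in the SSC lists (10, 3 and 10 peaks), and of 4 epithelial markers none had one in an iNSC list and 3, 3 and 2 had one in the SSC lists (11, 12 and 6 peaks). Pecam1, Kdr and Epcam were thus listed at 0 in every iNSC list and had peaks in every SSC list, while Krt18 was at 0 in all 6. What other cell types contribute to the SSC-only sites was not tested.

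The 932 sites were the part of a graded set that met the rule in full. A further 1978 sites in the same genes had peaks in no iNSC list and 2 SSC lists, and 502 had peaks in 1 iNSC list and 3 SSC lists. A site's rank was the lowest of its percentiles in the 3 SSC lists. Its median was 31.2 for the 932 SSC-only sites, 25.4 for the sites just outside with 2 SSC lists, 43.0 for those just outside with 1 iNSC list, and 68.1 for the 4679 sites with a peak in all 6 lists, called shared sites here. For the sites with 2 SSC lists it was the lowest of 2 percentiles. The 25.4 is therefore not the same measure as the other medians, which use the lowest of 3. Most SSC-only sites were therefore of middling or low score in at least 1 SSC list. For 660 the lowest percentile was under 50, for 161 it was under 10, and for 14 it was at least 90. The lowest of 3 percentiles leans low by construction, so these counts do not show that the class was weak within a list. The median percentile of peaks at SSC-only sites was 61.6, 55.6 and 55.8 in SSC replicates 1, 2 and 3. For the same lists' peaks at shared sites it was 83.99, 77.2 and 83.1. For peaks at iNSC-only sites it was 39.9, 49.1 and 50.03 in iNSC replicates 1, 2 and 3. When any 1 SSC library was set aside, the rule gave 1619, 1628 or 1665 sites, so each of the 3 libraries limited the count. Cutting every list to the length of the shortest gave 411 sites, which overlapped 341 of the 932.

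Single sites per gene were the common case. Of the 691 genes, 513 had 1 SSC-only site, 142 had 2, 26 had 3 and 10 had 4 or more, with a highest count of 14. A shared site was present in 435 of the 691 genes (63%), against 68.4% of all 3967 common genes, and 256 host genes had none. All but 1 of the 930 sites in genes of known strand lay on the strand of their gene. Genes with a promoter entry held 772 of the SSC-only sites. For other genes the strand was taken from the gene's own peaks, so agreement there was nearly fixed in advance. The agreement was not counted for the 772 sites alone. Some 31 sites also overlapped a long noncoding RNA span and 1 a pseudogene span, and for these the source transcript is less certain.

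The 10 best-ranked genes are described in order of rank. At 5 sites the score reached the cap in all 3 SSC lists. They lay in Nmt2, an N-myristoyltransferase that attaches a fatty acid to proteins, Srrm2, a scaffold of splicing speckles, Ncl, which encodes the nucleolar protein nucleolin, Sub1, a transcription coactivator, and Sycp1. The Nmt2 site (chr2:3304812-3305907, plus strand) was 1096 bases wide and lay 18923 bases from the nearest iNSC peak. In the same gene a shared site at the start of the span, chr2:3284212-3284406, was at the cap in all 6 lists. Nmt2 thus had a peak at its start in both cell types, while the strongest site deeper in the gene had a peak in the SSC lists alone.

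The Srrm2 site (chr17:23811900-23812620, plus strand) was 721 bases wide, had the same edges in the 3 SSC lists and lay 1853 bases from the nearest iNSC peak. The Ncl site (chr1:86359206-86359455) was 250 bases wide and covered the start of the gene, as the capitals of its window show. The shared Ncl site at chr1:86356957-86357452 was at the cap in every list, and it lay 1753 bases from the SSC-only one. The Sub1 site (chr15:11995951-11996058) was 108 bases wide, and the 2 shared sites of the gene had percentiles of 61.8, 66.4 and 41.7, and of 47.7, 51.4 and 36.5, in the iNSC lists, against 91.2, 91.1 and 84.8, and 95.7, 96.1 and 97.6, in the SSC lists. In Ncl the shared site was capped in both cell types, whereas in Sub1 the shared sites had lower percentiles in every iNSC list than in every SSC list.

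The next sites lay in Cdv3, Lonrf3, Chd1l, Ipo5 and Tpm1. The Cdv3 site (chr9:103365054-103365780) had percentiles of 96.0, 96.1 and 97.6, and the shared site of the gene at chr9:103359876-103360018 was at the cap in all 3 iNSC lists. Lonrf3 on the X chromosome had a site with percentiles of 94.9, 96.1 and 95.0. Chd1l, an ATP-dependent chromatin remodeller, had its best site at chr3:97570202-97570404 with percentiles of 92.2, 96.1 and 93.3. That site also overlapped a long noncoding RNA span, and it lay 499 bases from an iNSC-only site of the same gene with percentiles of 26.4, 26.9 and 33.4. Ipo5, a nuclear import receptor, had a 112-base site at chr14:120941632-120941743 with percentiles of 98.1, 92.1 and 99.9, and no iNSC peak within 30288 bases. The Tpm1 site, at the start of a tropomyosin gene, had percentiles of 90.6, 96.1 and 97.6. Replicate 1 gave the lowest of the 3 percentiles in Cdv3, Lonrf3, Chd1l and Tpm1, and replicate 2 in Ipo5.

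**Figure D1:**
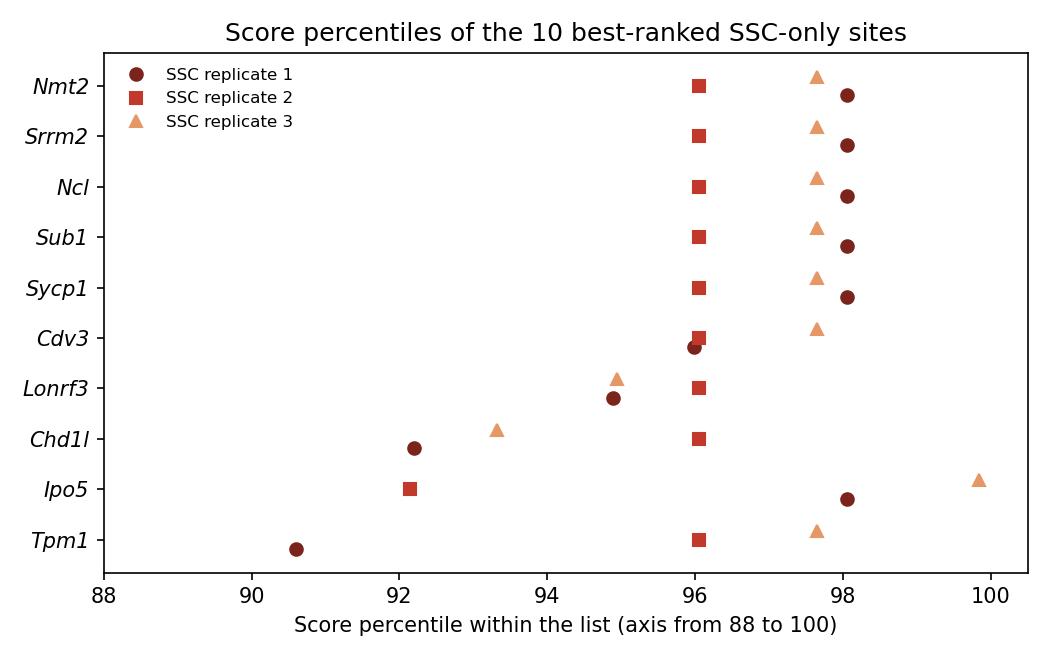
Score percentile within each SSC list (horizontal axis, 88 to 100) of the best SSC-only site of the 10 best-ranked genes, 1 symbol per SSC replicate. The top 5 genes sit at the cap of each list (98.1, 96.1 and 97.6), and the lowest value is 90.6 for Tpm1 in replicate 1.

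Sycp1 held more SSC-only sites than any other gene. It encodes the transverse filament of the synaptonemal complex, which joins homologous chromosomes in meiosis. The gene spans chr3:102818499-102936100 on the minus strand, and it had 5, 2 and 1 peaks in the iNSC lists and 24, 22 and 19 peaks in the SSC lists. Of its 25 sites 14 were SSC-only, 1 was shared and 10 had other patterns. The shared site, chr3:102900032-102900136, was strong in both cell types, with percentiles of 92.3, 82.2 and 91.8 in the iNSC lists and 95.8, 68.1 and 93.5 in the SSC lists. It was the sole Sycp1 peak in iNSC replicate 3. The 14 SSC-only sites were spread from 3375 bases after the gene's start to its annotated end, and they were 57 to 464 bases wide. The best, chr3:102878774-102878855, was 82 bases wide, was at the cap in each SSC list and lay 21176 bases from the nearest iNSC peak. The site at the end of the gene, chr3:102818499-102818962, was also the widest of the 14 and had the lowest rank among them, with percentiles of 43.0, 37.4 and 77.8.

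Gkap1, which encodes an anchoring protein of cGMP-dependent protein kinase, followed with 7 SSC-only sites over a span of 41532 bases (chr13:58233346-58274877, minus strand). It had 1 peak in each iNSC list and 9, 9 and 8 peaks in the SSC lists. The iNSC peak was the same 78-base stretch in each list, chr13:58236517-58236594, with percentiles of 58.8, 58.9 and 48.3, and in the SSC lists it was found in replicate 2 alone (61.4). Gkap1 therefore counted as methylated in all 6 lists through sites that the cell types mostly did not share. Its best SSC-only site, chr13:58263942-58264384, had percentiles of 80.7, 96.1 and 78.3 and lay 27347 bases from that iNSC peak.

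Ccdc171, Jakmip1, Utrn and Dst had 5 SSC-only sites each. Ccdc171 had 1, 1 and 2 peaks in the iNSC lists and 8, 10 and 13 in the SSC lists, and its SSC-only sites lay 68900 to 125626 bases from the nearest iNSC peak. Jakmip1, whose product binds Janus kinases and microtubules, had 2 peaks in each iNSC list and 7, 9 and 11 in the SSC lists. Its shared site, chr5:37091127-37091621, had percentiles of 63.4, 69.5 and 72.7 in the iNSC lists and 81.8, 83.5 and 90.1 in the SSC lists, and its 5 SSC-only sites all lay downstream of it. Dst, which encodes the cytoskeletal linker dystonin, was heavily marked in both cell types. The iNSC lists held 17, 25 and 22 peaks in it and the SSC lists 36, 38 and 31. Its 5 SSC-only sites were 5 of 48 sites, beside 9 shared ones. The sites of Utrn, the gene of the dystrophin relative utrophin, were 136 to 328 bases wide. In Sycp1, Gkap1 and Ccdc171 the SSC-only sites made up most or a large share of the gene's sites, while in Dst they were a small share.

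**Figure D2:**
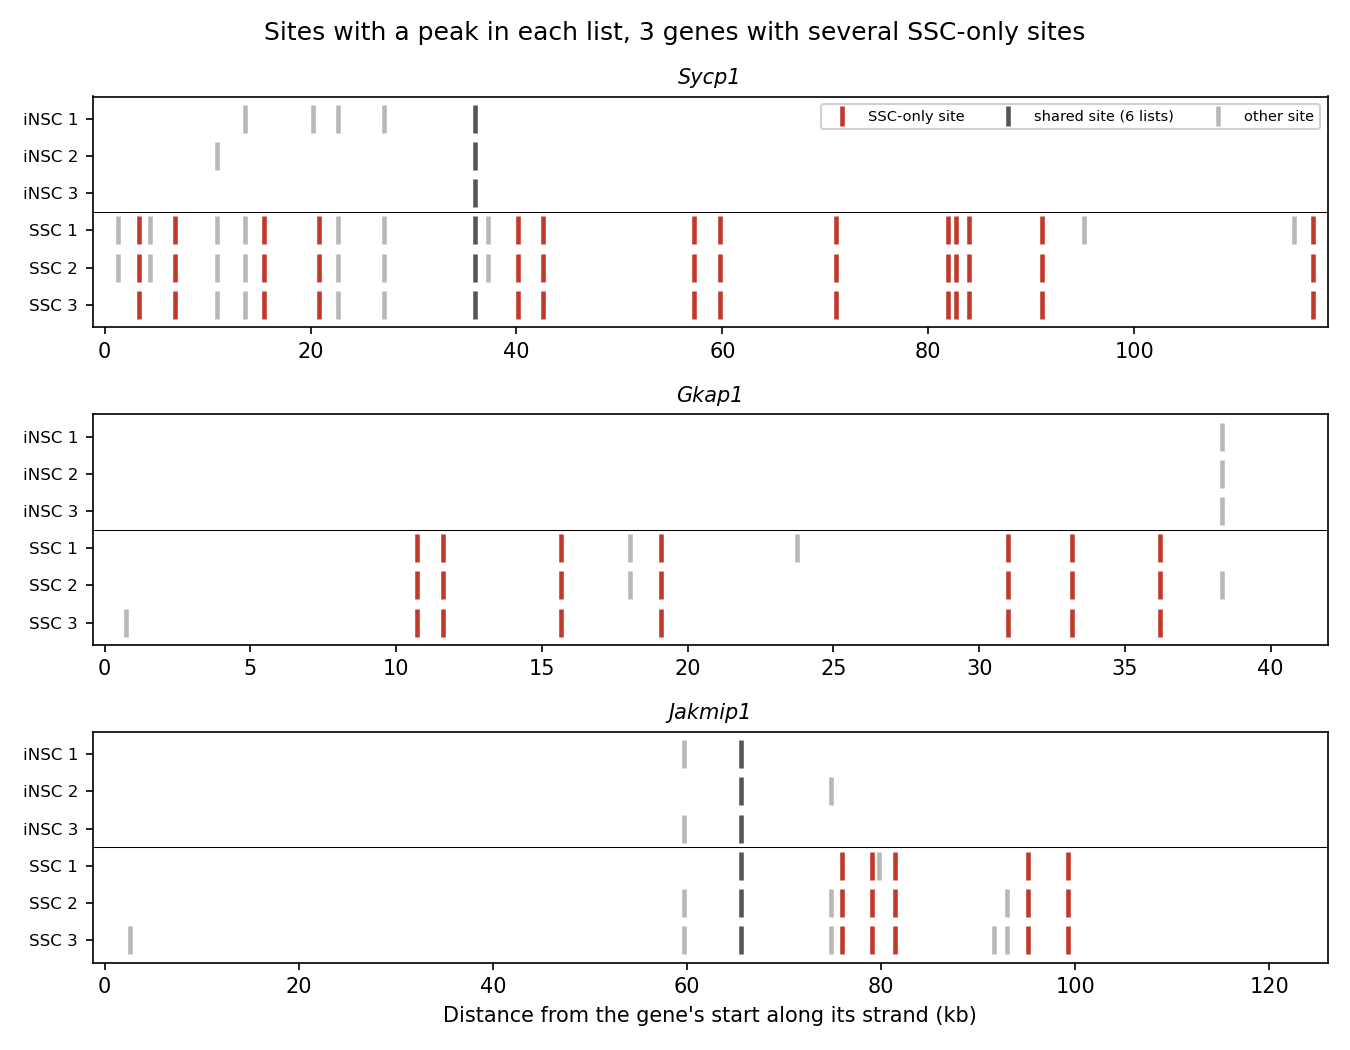
Sites along Sycp1, Gkap1 and Jakmip1, with the distance from the gene's start in kb on the horizontal axis and 1 row per list (iNSC 1 to 3 above SSC 1 to 3); each tick is a site with a peak in that list. Red ticks (SSC-only) run through the whole span of Sycp1, where 14 stand beside 1 shared site (dark), and the 7 red ticks of Gkap1 lie apart from its 1 iNSC stretch.

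SSC-only sites were narrow. Their median width was 144 bases (interquartile range 102 to 209, whole range 22 to 4215), against 382 bases for the 796 iNSC-only sites of common genes and 338 bases for the shared sites. Of the 932 sites, 790 (84.8%) were under 300 bases, against 45.6% of iNSC-only and 48.2% of shared sites. Only 24 (2.58%) reached 1000 bases, against 22.7% of iNSC-only and 30.1% of shared sites. The width was alike in the 3 SSC lists, with medians of 141, 143 and 142 bases for peaks at SSC-only sites and 317, 337 and 317 bases for the same lists' peaks at shared sites. The lists as a whole differ in width in the same direction, as given above, so the iNSC-only comparison carries that difference with it, whereas the shared sites were measured in the same SSC lists. In 648 sites (69.5%) the peak had identical edges in the 3 SSC lists. Identical edges in 3 lists were also found for 67.5% of iNSC-only and 58.8% of shared sites.

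The widest sites were unlike the rest. The widest in a named gene was in Peak1, a pseudokinase gene of the cytoskeleton, with 3236 bases at chr9:56257527-56260762 and percentiles of 84.3, 83.6 and 78.0. It too overlapped a long noncoding RNA span. Ptpn1, the gene of the tyrosine phosphatase PTP1B, had a 2599-base site that lay 96.6% along its span and had percentiles of 64.3, 52.9 and 63.1. The sites of Slc35d1, a nucleotide sugar transporter gene, and Zfp710 were 2419 and 2417 bases wide and had their centres 1922 and 1208 bases from the end of the gene. Cyp1b1, which encodes a cytochrome P450 enzyme, had a 2090-base site with percentiles of 78.0, 59.0 and 17.0, and an iNSC-only site of 873 bases elsewhere in the gene. The Slc35d1 site was as uneven, with percentiles of 87.2, 78.6 and 0.345, while those of Peak1 and Ptpn1 were even across the lists.

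Few SSC-only sites lay close to an iNSC peak on the genome. Distances in this report are genomic, with introns included, and run to any iNSC peak on the strand, in the same gene or not. Along the spliced transcript they can be shorter, which was not measured. The nearest iNSC peak on the same strand lay at a median of 6406 bases (interquartile range 2263 to 17601, whole range 64 to 429203). It was within 500 bases for 12 sites (1.29%), within 1000 bases for 63 (6.76%), within 2000 bases for 205 (22%) and within 10000 bases for 567 (60.8%). iNSC-only sites lay closer to the nearest SSC peak, with a median of 3652 bases and 4.4%, 16.3%, 34.2% and 75.5% within the same distances. The SSC lists hold more peaks to lie near, and the part of list length in this contrast was not tested.

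**Figure D3:**
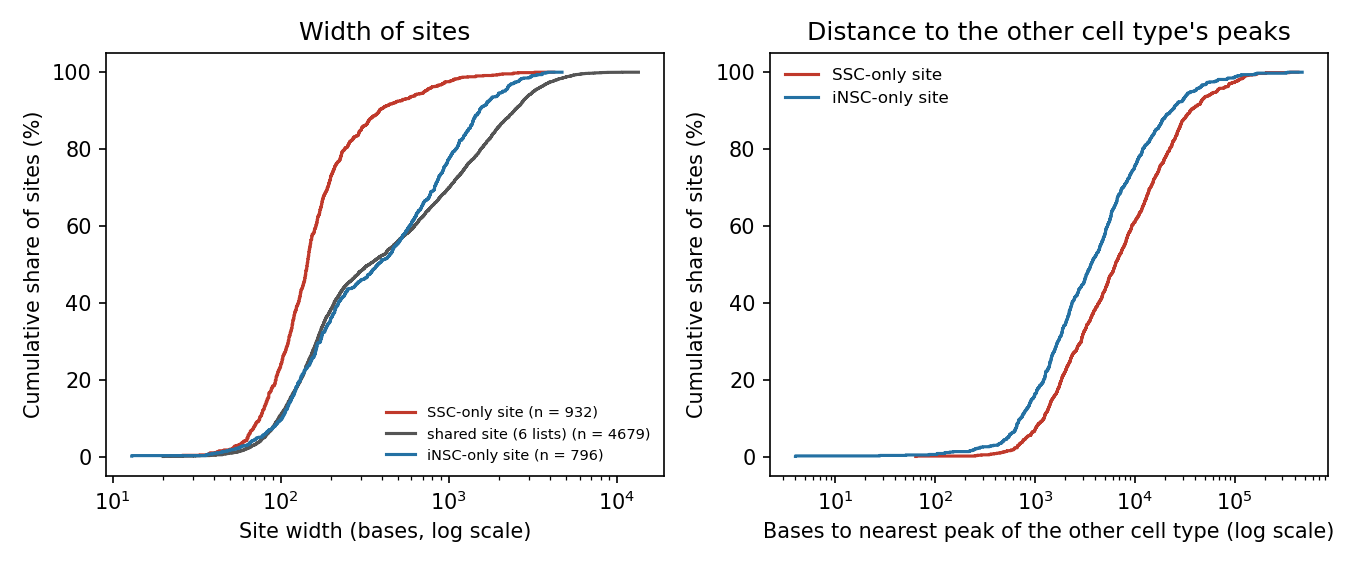
Cumulative share of sites in common genes (vertical axes, %) by site width in bases (left, log scale) and by distance in genomic bases to the nearest peak of the other cell type (right, log scale). The SSC-only curve (n = 932) lies left of those of shared (n = 4679) and iNSC-only sites (n = 796) for width, with medians of 144, 338 and 382 bases, and right of the iNSC-only curve for distance.

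SSC-only sites were spread along the gene body, and few lay at its end. Within 2000 bases of the span's end lay the centre of 3.31%, 3.33% and 3.33% of peaks at SSC-only sites in SSC replicates 1, 2 and 3 (3.32% ± 0.0114, SD, n = 3), and of 18.5%, 17.5% and 17.8% of the same lists' peaks at shared sites (17.95% ± 0.502, n = 3). The difference was −14.6 percentage points and had the same sign in 3 of 3 lists (exact sign-flip permutation test within lists, two-sided p = 0.25, the smallest this design allows, adjusted p = 0.25 over 4 position tests). At iNSC-only sites the share was 16.4%, 16.1% and 16.0% in the 3 iNSC lists (16.2% ± 0.214, n = 3). The SSC-only share was lower by 12.9 percentage points without overlap between the lists (exact two-sided permutation test, p = 0.1, the smallest possible with 3 against 3, adjusted p = 0.2). Neither test could reach 0.05. By the rule each list holds a peak at every site of the class measured in it. The SDs and the agreement of the lists therefore do not measure spread among libraries. SSC-only sites also cannot overlap iNSC peaks, and 18.1% of the iNSC lists' peaks at shared sites lay in these last 2000 bases. The part of this in the differences was not tested.

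Much of that difference at the gene end went with peak width. Among peaks narrower than 300 bases, a limit chosen after the values were seen, the last 2000 bases held 1.23%, 0.998% and 1.49% of SSC-only peaks and 3.23%, 1.83% and 2.57% of shared peaks in the SSC lists, a difference of −1.30 percentage points. Against narrow iNSC-only peaks, of which 1.91%, 2.17% and 1.64% lay there, the difference was −0.670. The direction was kept in both comparisons, and the differences were far smaller than those for all peaks.

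At the gene start the SSC-only sites stood between the other classes. The first 500 bases held 6.72%, 6.87% and 6.77% of peaks at SSC-only sites (6.79% ± 0.0735, SD, n = 3) and 8.37%, 8.50% and 8.35% of the SSC lists' peaks at shared sites (8.41% ± 0.0800, n = 3), a difference of −1.62 percentage points (exact sign-flip permutation p = 0.25, adjusted 0.25). Among narrow peaks this difference was larger, at −5.78, and it was −0.769 without SSC replicate 1 and −0.915 without SSC replicate 2. iNSC-only sites had 4.89%, 4.88% and 4.88% of their peaks there, 1.901 percentage points fewer (exact permutation p = 0.1, adjusted 0.2). That last difference had no stable sign. It was −2.85 among narrow peaks, −1.40 without iNSC replicate 2 and −2.56 without SSC replicate 3.

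When the gene span was cut into 10 equal parts, SSC-only peaks were spread rather evenly. The last of these parts held 10.4% of them, against 23.5% of shared peaks in the SSC lists and 33.5% of iNSC-only peaks in the iNSC lists. Their fullest was the eighth, with 12.9%, and the first held 12.1%, against 12.8% of shared and 9.81% of iNSC-only peaks. The median peak lay 56.4%, 56.2% and 56.3% along the span at SSC-only sites, 66.7%, 66.0% and 66.1% at shared sites in the same lists, and 74.9%, 75.1% and 75.1% at iNSC-only sites. By site, 63 of the 930 lay in the first 500 bases, 31 in the last 2000 and 836 in neither. Exon models and a genome were not used here, so whether a site was exonic, intronic or in an untranslated region, and its sequence away from promoters, were not analysed.

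**Figure D4:**
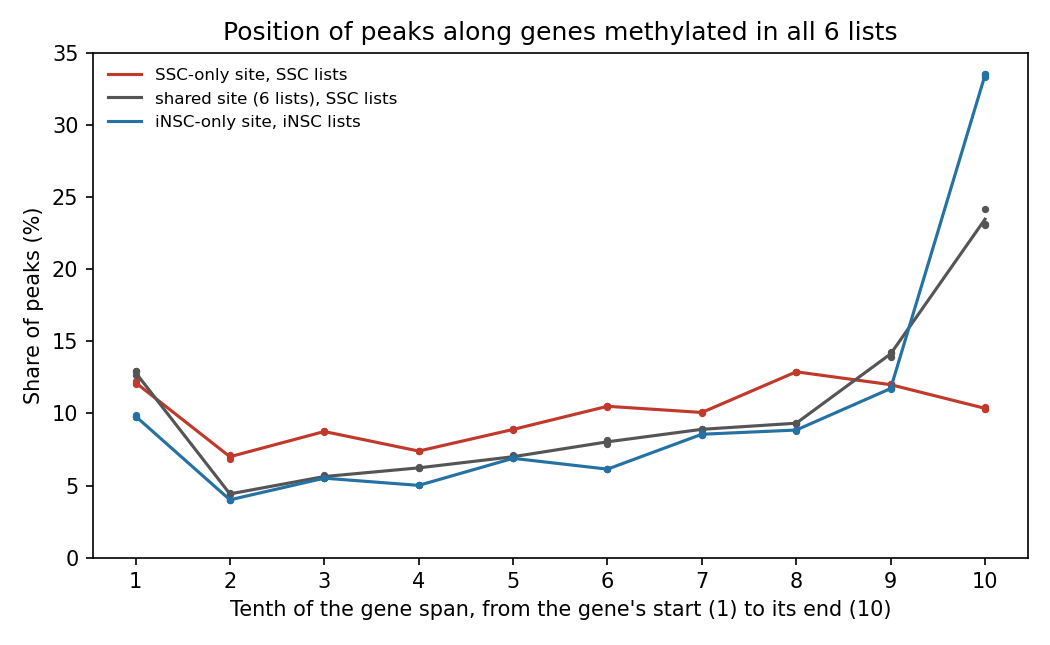
Share of peaks (vertical axis, %) in each of 10 equal parts of the gene span, from its start (1) to its end (10); lines are means over 3 lists and points are single lists. SSC-only peaks (red) hold 10.4% in the last of them, where shared peaks (grey) hold 23.5% and iNSC-only peaks (blue) 33.5%.

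Some genes had sites of both kinds. Both an SSC-only and an iNSC-only site were present in 140 genes, at any distance from each other. These were 20.3% of the SSC-only hosts and 20.8% of the iNSC-only hosts, while 17% of all common genes had an iNSC-only site. In 103 of the 139 such genes with a known strand (74.1%) the iNSC-only sites lay downstream of the SSC-only ones on average, and in 36 they lay upstream. Over all host genes the median peak also lay further along the span at iNSC-only sites (74.9% to 75.1%) than at SSC-only sites (56.2% to 56.4%). Whether the count exceeds what these class positions give was not tested. Ctnnd1, the gene of the adhesion protein p120-catenin, is an example of a gene whose iNSC-only sites lay downstream. Its SSC-only site at chr2:84650321-84650745 began 5 bases before an annotated start and had percentiles of 98.1, 96.1 and 88.7. One of its iNSC-only sites, 2249 bases wide at chr2:84600655-84602903, had percentiles of 74.3, 75.7 and 76.8, and the gene had no shared site. Ank3, the gene of the membrane scaffold ankyrin-G, likewise had an SSC-only site (chr10:69986083-69987529, percentiles 90.1, 73.4 and 64.7) upstream of an iNSC-only site (chr10:70023832-70025516, percentiles 40.0, 50.6 and 48.2).

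Longer genes held SSC-only sites more often. In 4 equal groups of common genes by span, the share with such a site was 6.25% in the group with the shortest spans (up to 17689 bases), 14.6% and 22.5% in the next groups, and 26.3% in the group with the longest spans (from 79490 bases). iNSC-only sites had a like gradient, at 5.95%, 13.9%, 20% and 28%. The median span was 59539 bases for SSC-only hosts, 63835 bases for iNSC-only hosts and 37006 bases for all common genes. By chromosome the share of SSC-only sites among sites of common genes went from 2.59% on chromosome 18 to 5.67% on chromosome 15, and was 5.09% (27 sites) on the X.

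Gene classes differed widely in how often they held an SSC-only site, beside 17.4% of all common genes. The share is given with the median span of the class's common genes and with the share that held an iNSC-only site, which was 17% of all common genes. Span moves with both shares, and its part in them was not tested. Centrosome, spindle and mitotic genes stood highest among lists with at least 8 common genes. Of 39 such genes, 21 (53.8%) held 30 SSC-only sites, at a median span of 57814 bases, and 28.2% held an iNSC-only site. Pcm1, the scaffold of centriolar satellites, had 3 sites near its end, the best at chr8:41330806-41331107 with percentiles of 87.8, 96.1 and 84.6. Bub1b, which encodes the spindle checkpoint kinase BUBR1, had 3 sites, of which chr2:118617706-118617935 had percentiles of 82.8, 96.1 and 93.8. Ckap5, a microtubule polymerase gene, had 1 (percentiles 77.6, 67.4 and 81.4). Of 21 Kif kinesin genes, the motors that walk on or dismantle microtubules, 8 (38.1%) had a site and 19% an iNSC-only site, at a median span of 46612 bases. Of these 8, 5 are also among the 21 centrosome, spindle and mitotic hosts. Kif2a had one at its start with percentiles of 85.5, 89.2 and 89.3.

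Of 39 listed meiosis genes 8 were common, and 4 of these (Sycp1, Brca2, Atm and Smc3) had an SSC-only site and 3 an iNSC-only site, at a median span of 46644 bases. Their 20 sites included the 14 of Sycp1. Brca2, a recombination repair gene, had 2 sites, the better of which (percentiles 80.4, 65.4 and 77.4) also overlapped a long noncoding RNA span. Atm, the DNA damage kinase gene, had 3, with lowest percentiles of 14.7 to 22.1. Of 38 DNA repair and replication genes, 10 (26.3%) had a site and 23.7% an iNSC-only site, at a median span of 49501 bases. Mcm3, a subunit of the replicative helicase, had the best, at percentiles of 85.02, 96.1 and 97.6, and its shared site had 36.4, 30.5 and 26.2 in the iNSC lists against 81.2, 83.8 and 94.7 in the SSC lists.

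Cytoskeletal and adhesion genes followed. Of 30 such genes 12 (40%) held 23 sites, at a median span of 134567 bases, and 16.7% held an iNSC-only site. Beside Ctnnd1 and Dst they included Ctnna1, the gene of α-catenin (percentiles 77.4, 75.2 and 90.4), and Sptbn1, a spectrin gene with 3 sites. Itga6, the laminin-binding integrin subunit used to enrich SSCs, had 2 sites with percentiles of 31.2, 84.4 and 86.7, and of 24.6, 59.8 and 55.4. It was also the sole host among the 4 common genes of the undifferentiated spermatogonia list, none of which held an iNSC-only site, at a median span of 39631 bases. No gene of the germ cell identity list was common, so that list had no member by construction of the rule.

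RNA decay and translation control genes had a site in 14 of 36 (38.9%) and an iNSC-only site in 19.4%, at a median span of 73468 bases. Eif2ak4, which encodes the amino acid sensor kinase GCN2, led with percentiles of 90.6, 85.7 and 87.8. Tnrc6b and Tnrc6c, partners of Argonaute in microRNA silencing, had 2 sites and 1 site, the best of each at percentiles of 85.6, 81.8 and 79.7, and of 70.3, 91.9 and 80.6. Ubiquitin ligases and deubiquitinases had a site in 16 of 44 (36.4%), close to the 34.1% with an iNSC-only site, at a median span of 84317 bases, and the deubiquitinase genes Usp48, Usp9x and Usp37 ranked first among them. In transcription elongation and splicing genes the share was 4 of 34 (11.8%) and that of iNSC-only sites 14.7%, at a median span of 33505 bases, with Srrm2 the best and the FACT histone chaperone gene Supt16 next. Ddx and Dhx RNA helicase genes had sites in 7 of 36 (19.4%) and iNSC-only sites in 16.7%, at a median span of 28614 bases, and Ddx42 ranked first.

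Chromatin gene lists had shares of 10% to 28.6%. Remodellers had them in 10 of 35 (28.6%, the same share as for iNSC-only sites), at a median span of 88125 bases, with Smarca5, the ISWI ATPase gene, best at percentiles of 95.1, 77.1 and 82.7. Histone and DNA methylation enzymes had them in 10 of 39 (25.6%) and iNSC-only sites in 17.9%, at a median span of 72915 bases. Dnmt1, the maintenance DNA methyltransferase gene, had 1 site at chr9:20919840-20919987 with percentiles of 88.8, 96.1 and 90.8. It lay downstream of 6 shared Dnmt1 sites, 5 of which were at the cap in SSC replicates 2 and 3. Coactivator and acetylation genes had SSC-only sites in 5 of 22 (22.7%) and iNSC-only sites in 40.9%, at a median span of 86145 bases. Among them the acetyltransferase genes Crebbp and Ep300 had 1 and 2 SSC-only sites. Polycomb genes had a site in 2 of 20 (10%), in Cbx7 and Asxl2, and an iNSC-only site in 25%, at a median span of 44639 bases.

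The m6A machinery itself held SSC-only sites in 3 of 13 common genes (23.1%) and iNSC-only sites in 30.8%, at a median span of 28950 bases. Mettl14, which encodes the RNA-binding partner of the methyltransferase METTL3, had an 89-base site at chr3:123383596-123383684 with percentiles of 81.0, 86.7 and 75.2, lying 753 bases from an iNSC peak. Its 3 shared sites included chr3:123382755-123382842, with percentiles of 16.1, 8.93 and 18.6 in the iNSC lists and 80.6, 83.4 and 84.3 in the SSC lists. The m6A-binding translation regulators Fmr1 and Eif3a had 2 sites and 1 site, the best of each at percentiles of 81.2, 77.7 and 85.7, and of 89.5, 84.0 and 82.7. Of the 7 genes of the NF-κB, cyclin D1 and YTHDF1 axis in the series title, Nfkbie, Nfkb1 and Ythdf1 were common and none held an SSC-only site. Nfkb1 and Ythdf1 each had 1 iNSC-only site. In the wider NF-κB list 3 of 19 genes (15.8%) had an SSC-only site, in Rel, Tab3 and Ikbke, and 26.3% had an iNSC-only site, at a median span of 34123 bases. Rel, an NF-κB subunit gene, had 2, the better with percentiles of 75.01, 71.3 and 82.6, and the Ikbke site, which lay at the gene's start and over a long noncoding RNA span, had uneven percentiles of 1.51, 39.2 and 73.1.

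The other signalling lists held SSC-only sites at shares near or under that of all common genes, and iNSC-only sites at higher shares. TGF-β and BMP genes had SSC-only sites in 4 of 19 (21.1%) and iNSC-only sites in 31.6%, at a median span of 69010 bases, with the effector Smad2 (percentiles 79.2, 89.7 and 59.8), the receptor Tgfbr1 and the ubiquitin ligase Smurf2 best ranked. GDNF, FGF and receptor kinase genes, the pathways of the SSC growth factors, had SSC-only sites in 4 of 24 (16.7%) and iNSC-only sites in 41.7%, at a median span of 80061 bases. The adaptor Frs2 had 2, the inhibitor Spred2 had 1 and the Ras GTPase-activating gene Rasa1 had 1. Wnt genes had SSC-only sites in 2 of 16 (12.5%) and iNSC-only sites in 25%, at a median span of 95678 bases. Apc, the scaffold of β-catenin breakdown, had 3, the best with percentiles of 85.05, 76.4 and 77.4, beside a shared site of 7377 bases, and Gsk3b, its kinase, had 1 of 1018 bases. Notch genes had SSC-only sites in 2 of 13 (15.4%) and iNSC-only sites in 38.5%, at a median span of 50124 bases, and the ubiquitin ligase gene Itch had a lowest percentile of 3.32 at best. Retinoic acid genes had an SSC-only site in 1 of 8 and an iNSC-only site in 37.5%, at a median span of 86650 bases. Among pluripotency genes 1 of 8 had an SSC-only site (Lifr, lowest percentile 0.926) and none an iNSC-only site, and among G1 to S genes 1 of 9 (E2f7) had an SSC-only and 55.6% an iNSC-only site, at median spans of 14457 and 15844 bases.

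Of 32 neural stem genes 3 were common, and 2 of these held an SSC-only site and none an iNSC-only site, at a median span of 9359 bases. Sox9, a neural stem and glial transcription factor, had a 254-base site at chr11:112783809-112784062 with percentiles of 80.2, 57.7 and 70.6, lying 609 bases from its shared site. That shared site, 2502 bases wide, had percentiles of 92.3, 90.9 and 91.8 in the iNSC lists, which is where their cap sits. In the SSC lists it had 92.6, 71.6 and 89.7, below the cap of each. Gli3, a Hedgehog pathway transcription factor, had a 114-base site with percentiles of 50.5, 27.1 and 52.8. None of 14 common axon guidance genes held one and 5 held an iNSC-only site, at a median span of 45155 bases. In the neuronal and glial list, 1 of 4 common genes held an SSC-only site, the Ank3 site given above, and 2 held an iNSC-only site, at a median span of 205864 bases. In the extracellular matrix list Col4a1, a basement membrane collagen gene, was the sole host of 13, where 23.1% held an iNSC-only site, at a median span of 113865 bases.

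Zinc finger genes were the largest class and held few sites. Of 161 common Zfp genes, 10 (6.21%) had an SSC-only site and 4.97% an iNSC-only site, at a median span of 19262 bases. Zfp318, whose best site had percentiles of 71.9, 71.8 and 77.1, ranked first. Tmem genes had a site in 1 of 21 (4.76%, the same share as for iNSC-only sites), at a median span of 18320 bases. Slc transporter genes had one in 7 of 48 (14.6%) and an iNSC-only site in 18.8%, at a median span of 28619 bases, and none of 5 common Hox or 2 common protocadherin genes had one, while both protocadherin genes held an iNSC-only site (median spans 4560 and 66160 bases). Zbtb genes had a site in 3 of 24 (12.5%, also for iNSC-only sites), at a median span of 17647 bases, and both ankyrin repeat genes and the MYM and ZC3H zinc finger genes in 3 of 13 (23.1%, also for iNSC-only sites), at median spans of 60981 and 45758 bases.

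**Figure D5:**
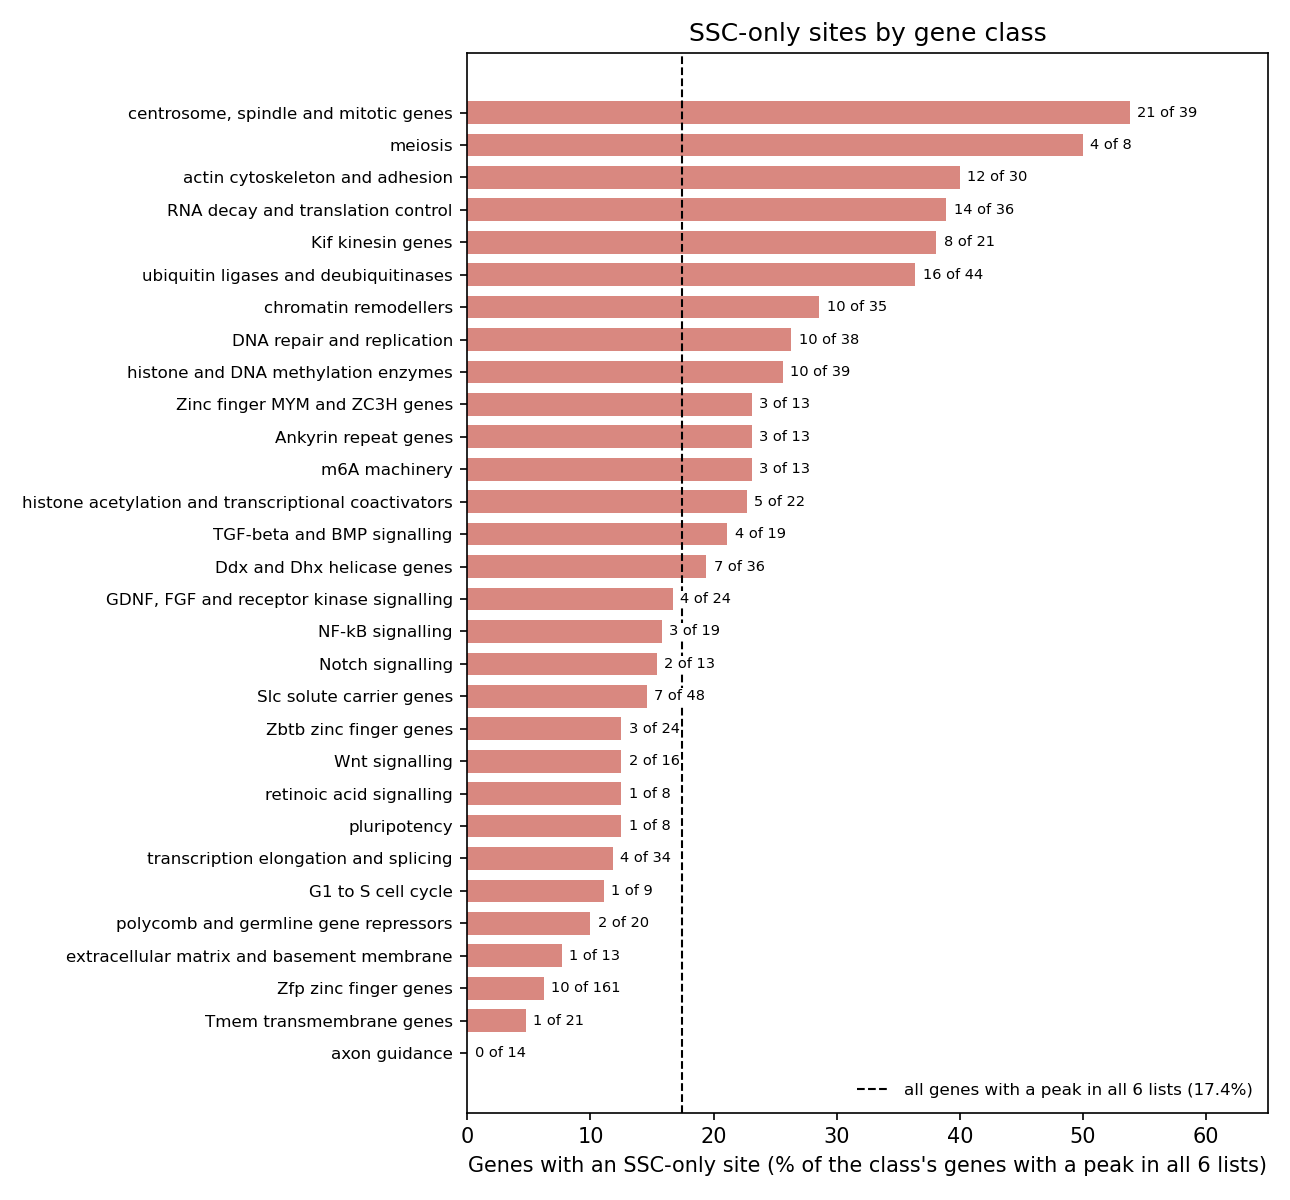
Share of common genes with at least 1 SSC-only site (horizontal axis, %) in the gene lists and symbol families reported here with at least 8 common genes; counts stand beside the bars, and the dashed line marks the 17.4% of all 3967 common genes. Centrosome, spindle and mitotic genes (21 of 39) stand at the top, and Zfp genes (10 of 161), Tmem genes (1 of 21) and axon guidance genes (0 of 14) at the bottom.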

How the data were processed

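Each deposited file was the peak list of 1 m6A immunoprecipitation library with 6 columns: chromosome, start, end, name, score and strand. The authors deposited the score without stating its unit, and values of at least 3100 were treated as the cap. Per the submitters' processing notes, HISAT2 2.0.4, cutadapt 1.9.3 and mm9 were used. Neither peak caller nor threshold is given in the sources used here. The coordinates lay on GRCm38: 4.90% to 12.0% of peaks per list had an edge on a gene edge of the RefSeq GRCm38 table as deposited, and 0% after a shift of 10000 bases. Positions are 1-based. The lists hold no read counts, so the depth per library is unknown and intervals or limits that need it are not given.

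A site counted for a gene when its span was the sole one of 21900 protein-coding spans that it overlapped. Gene strand came from the RefSeq promoter table (79.9% of genes) or from the strand of over 90% of a gene's peaks. Percentiles were taken within each list. Position used peak centres, in the first 500 and last 2000 bases of the span. The group difference in these shares was tested with exact permutation tests (Python 3.11.15, scipy 1.17.1, pandas 2.3.3, numpy 2.4.6) with Benjamini-Hochberg adjustment over 4 tests. The procedure was tested on simulated data. The lists of a group hold peaks at the same sites by the rule, so the p-values do not measure the spread among libraries. Separate cultures are not stated either, so any difference among lists may be technical.

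The sites, the 26 gene lists, the 11 symbol families and the tests were chosen with earlier results of these data known. Genes were named by rule: the 10 best-ranked by the lowest of 3 SSC percentiles (wider first at ties), the 6 with most sites, the 5 widest sites, up to 3 per list, and the genes of the series title, leaving out clone and predicted names. A few genes and 1 family that these rules select are not reported here. Smc3 was named outside the rule, after its values were seen. Alternatives were an overlap of 50%, the better-scoring 50% of each list, equal list lengths, minimum widths, gaps to iNSC peaks, other windows, a replicate block and leaving out each library. A limit on narrow peaks was added after the data were seen.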

Additional observations from a re-analysis of the deposited data

How the results depend on the processing

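The count of 932 SSC-only sites moved with how the lists were cut. Keeping the better-scoring 50% of every list gave 613 sites, and 179 of the 932 sites (19.2%) were met again. It was 411 in lists of equal length (341 of the 932, 36.6%). It was 2910 when 2 of 3 SSC lists sufficed and 600 when the gene had to hold a shared site. It was 935 at an overlap of 50%, 634 at a width of at least 100 bases, and 931 and 869 with no iNSC peak within 200 and 1000 bases. Without 1 library it ran from 1092 to 1665. The position differences, in percentage points, were tested in designs that cannot pass 0.05, so only their sign and size are compared. The last 2000 bases kept their sign under every alternative run, from −17.6 to −1.30 against shared sites (leaving out 1 library, −15.1 to −14.6) and from −16.4 to −0.670 against iNSC-only sites (leaving out 1 library, −16.4 to −11.3). The first 500 bases went from −5.78 to −0.466 against shared sites (leaving out 1 library, −2.43 to −0.769). Against iNSC-only sites they changed sign, with −2.85 among narrow peaks and −2.56 to 4.20 (with −1.40 without iNSC replicate 2) on leaving out 1 library. The cause was not tested. The labels do not state whether replicate numbers pair the libraries. Correlations of same-numbered deviations over common genes were −0.0224, −0.0393 and 0.148, which cannot settle it. With the number as a replicate block the differences against iNSC-only sites stayed −12.9 and 1.901, with an exact p of 0.25 for each. Unknown depth, capped scores and uncalled weak peaks limit what an absent peak shows.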
